A study of Saccharomyces cerevisiae with 36 samples.

Results

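The DHDr2 designs are 21 synthetic heterodimers, each made of a chain A and a chain B, and all 42 chains whose names begin with DHDr2_ were taken. They gave 1764 ordered pairs, of which 42 joined A and B of one design, 840 joined A and B of different designs, 420 joined A chains of different designs, 420 joined B chains of different designs and 42 joined a chain with itself. The chains were measured among 122 proteins in the subset library set (L43) and among 337 proteins in the pool library sets (L44 and L49). The labels call the series DHD2 where the count tables write DHDr2.

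Designed heterodimers are helical proteins made on the computer so that the chains of a design should bind each other and leave other chains alone. In a yeast 2-hybrid assay the chains are fused to the separate parts of a transcription factor, and a pair that binds brings the parts together and switches on a reporter gene. Here the reporter was HIS3, an enzyme of histidine synthesis, so that growth without histidine selects cells whose pair interacts, and 3-AT, a competitive inhibitor of that enzyme, sets how much of it a cell needs.

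All cells, before and after selection, were of one MATa yeast strain that carried the reporter as leu2::pGAL6z-HIS3. Its own genes bore his3-delta, leu2-delta200, trp1, ura3-52 and can1, and it also carried pep4::BleoMX, prbd1.6R and GAL, with AGA1::GAL1-AGA1::URA3 besides. Libraries before selection came from medium with histidine, and libraries after selection from medium lacking histidine. The sample descriptions give 1 mM 3-AT for these sets, whereas the growth protocol has 3 mM. L43 held a subset of the pool and had 1 library before and 1 after selection. L44 and L49 are labelled as biological replicates 1 and 2 of the whole pool, also with 1 library each before and after. The title of the selected L43 library reads both ways, and its description gives it as selected. The sources do not say which axis of a table stood for the DNA-binding fusion, and each pair is written as row chain with column chain.

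Each chain was read through a barcode of 20 bases, and the map of names to barcodes was the same in the 3 sets for DHDr2 chains. The barcodes below belong to the chains of the crossed pairs most enriched over the 3 sets and to the A chains of designs 03 and 11, because every count given for those chains is a count of these sequences.
DHDr2_02_A: acatgtatccctcaggtttc
DHDr2_05_A: catgttttgccttgctgatc
DHDr2_08_A: cgctatgcgtaggctgtctg
DHDr2_16_B: cacactaactaaatactcgg
DHDr2_13_A: aatcgttgccctgacgagac
DHDr2_19_B: ttaagacgaactgccacagc
DHDr2_17_B: cactttagtgcgcataaaca
DHDr2_11_B: cacccacttgtaccccacac
DHDr2_07_B: ggctcctatccgcgcaattg
DHDr2_09_B: ttgcagcgaacgatccagga
DHDr2_03_B: acacccgctgtgatgacctc
DHDr2_03_A: aaatggagtgtaatggagac
DHDr2_11_A: aaagaaagtcataaaggtaa

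No DHDr2 barcode came closer than 7 positions to any other barcode of the map, and the 2 barcodes of each crossed pair past 8-fold in all sets differed from each other at 12 to 16 positions. The number of G and C bases ran from 4 to 15 of 20 over the 42 barcodes. The Pearson correlation of this number with the log2 reads of a chain before selection, over the 42 chains, was 0.262 in L43, 0.243 in L44 and 0.210 in L49. All 42 values of a set come from 1 library, and the part of base composition in the ratios was not tested.

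Depth set how finely each set could be read. L43 held 21994913 reads before and 20288936 after selection, L44 held 33394129 and 34925075, and L49 held 4057624 and 3959528. A DHDr2 pair had a median of 1089 reads before selection in L43, 246 in L44 and 18 in L49. A pair was counted as measured with at least 10 reads before selection, which left 1710, 1750 and 1330 of the 1764 pairs, and 1306 were measured in all 3 sets. Because reads came from PCR and carried no molecular identifiers, the 95% intervals given here, exact binomial intervals on the reads of a pair, cover counting error only.

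Values are log2 of the share of reads after selection over the share before, with 1 read added to each count, and are called log2 ratios. A log2 ratio of 0 was not the level of a typical pair: the median over all pairs of a table was -3.72 in L43, -2.79 in L44 and -2.55 in L49. A log2 ratio of 3 or more is called past 8-fold. Over all proteins, 2.4% of measured pairs were past 8-fold in L43, 2.64% in L44 and 1.54% in L49, and 0.443% of those measured in all 3 sets were past it in each.

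Chains of one design were past 8-fold in 5 of 42 ordered pairs in L43, 8 of 42 in L44 and 3 of 32 in L49, against the background shares just given. All of these came from 4 of the 21 designs, numbered 03, 07, 08 and 11. Chains of these designs were also frequent among DHDr2 pairs of all kinds past 8-fold. DHDr2_11_B was in 11 of 48 such pairs in L43, and DHDr2_03_B and DHDr2_08_B were each in 8 of 70 in L44. In L49 DHDr2_13_A was in 6 of 30 and DHDr2_03_B in 5. The median designed pair stood at -3.34 in L43, -2.33 in L44 and -1.55 in L49, against -3.72, -2.79 and -2.55 over all pairs. In 11 designs no measured value was above 0 in either orientation, and in 3 designs, 03, 07 and 11, every measured value was. A value below 0 was usual: the upper quartile over all pairs was -2.64 in L43, -1.98 in L44 and -1.12 in L49.

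Design 11 was the one with a pair past 8-fold in all 3 sets. DHDr2_11_A with DHDr2_11_B went from 3232 to 103746 reads in L43, from 368 to 6022 in L44 and from 21 to 254 in L49. Its log2 ratios were 5.12 (interval 5.07 to 5.17), 3.96 (3.82 to 4.12) and 3.57 (2.99 to 4.35), with a mean of 4.22 ± 0.81 (SD, n = 3 sets). The swapped pair, DHDr2_11_B with DHDr2_11_A, had log2 ratios of 1.91, 3.27 and 3.43, so the subset library was the low one.

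Design 03 was past 8-fold in both sets that measured it with DHDr2_03_B in the row. DHDr2_03_B with DHDr2_03_A went from 1694 to 31161 reads in L43 and from 142 to 1318 in L44, log2 ratios of 4.32 and 3.14, and had 6 reads before selection in L49, too few to be measured. DHDr2_03_A with DHDr2_03_B had log2 ratios of 4.19, 6.18 and 1.90, with 44 reads before and 163 after selection in L49. The lowest value of this pair was thus in the shallowest set.

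Designs 07 and 08 were not covered by the naming rule and were picked after their values were seen. DHDr2_07_A with DHDr2_07_B had log2 ratios of 4.48, 4.19 and 2.79, and the swapped pair had 3.08, 5.06 and 0.79. DHDr2_08_B with DHDr2_08_A had 2.92, 3.98 and 5.52, with 10 reads before and 490 after selection in L49, while DHDr2_08_A with DHDr2_08_B had 2.64, 4.54 and -1.55, the last from 11 reads before and 3 after. In L44 both designs were past 8-fold in both orientations, and in L43 design 07 was.

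Designs 14, 15 and 18 had the lowest means over both orientations and all sets, at -5.14, -4.33 and -3.89. DHDr2_14_B with DHDr2_14_A went from 1006 reads to 2 in L43, from 139 to 12 in L44 and from 15 to 0 in L49, which are log2 ratios of -8.27, -3.49 and -3.96. No value of design 14 was above -3.05. The other 14 designs had means between -3.70 and 0.54, the highest that of design 17.

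Crossed pairs, which join chains of different designs, were past 8-fold in 42 of 1635 cases in L43 (2.57%), 62 of 1673 in L44 (3.71%) and 26 of 1270 in L49 (2.05%), against 2.4%, 2.64% and 1.54% of all pairs. Past 8-fold in all 3 sets were 7 of 1249 crossed pairs, or 0.560%, and the background share was 0.443%. Those 7 ordered pairs came from 6 combinations of chains.

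Only the combination of DHDr2_16_B and DHDr2_08_A was past 8-fold in every set in both orientations. DHDr2_16_B with DHDr2_08_A went from 345 to 10810 reads in L43, from 342 to 12602 in L44 and from 15 to 1121 in L49, log2 ratios of 5.08, 5.13 and 6.17 and a mean of 5.46 ± 0.61 (SD, n = 3 sets). Swapped, the log2 ratios were 5.54, 4.77 and 3.47. This is an A chain and a B chain of different designs, and the designed pair DHDr2_16_B with DHDr2_16_A stood at -5.16, -2.81 and -2.61.

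The highest mean of the 7 belonged to DHDr2_13_A with DHDr2_19_B, again an A chain with a B chain. It went from 3217 to 343348 reads in L43, from 265 to 29082 in L44 and from 35 to 354 in L49, log2 ratios of 6.85, 6.71 and 3.34. The swapped pair had 5.61, 7.29 and 0.78, so that L49 was the low set both ways. Both chains also had medians over all partners above those of the tables, as given below.

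The other 4 crossed pairs past 8-fold in all sets joined chains of the same letter. DHDr2_17_B with DHDr2_11_B had log2 ratios of 3.66, 4.87 and 6.20, and 4.74, 5.09 and 2.41 when swapped. DHDr2_17_B with DHDr2_07_B had 3.43, 4.77 and 3.00, and DHDr2_09_B with DHDr2_03_B had 3.22, 4.33 and 3.38. DHDr2_05_A with DHDr2_02_A, the A chain combination, had 3.56, 4.05 and 4.83.

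DHDr2_07_B with DHDr2_17_B had 4.25 and 4.69 in L43 and L44, and 9 reads before and 143 after selection in L49. DHDr2_02_A with DHDr2_05_A had 3.85 and 7.83 in L43 and L44 and had 6 reads before and 256 after selection in L49. DHDr2_03_B with DHDr2_09_B was well below its swapped form, at 1.35, 2.08 and 0.59. Just outside the limit stood DHDr2_04_B with DHDr2_13_A at 2.93, 2.81 and 6.88, and DHDr2_14_A with DHDr2_08_A at 2.74, 3.28 and 7.02.

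By letter, crossed pairs past 8-fold in all sets numbered 3 of 616 for A with B, 1 of 258 for A with A and 3 of 375 for B with B. Median log2 ratios of A with B, A with A and B with B pairs were -3.99, -3.46 and -3.84 in L43, -2.72, -2.42 and -2.83 in L44, and -1.90, -1.96 and -2.17 in L49. The order of the 3 classes therefore changed between sets.

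A chain paired with itself was never past 8-fold in all 3 sets, in 25 pairs measured in each. With a background share of 0.443%, 25 pairs are too few to set same-chain pairs apart. Past 8-fold were 1 of 33 measured pairs in L43, 0 of 35 in L44 and 1 of 28 in L49. Over all pairs the shares were 2.4%, 2.64% and 1.54%. The same-chain pairs past it were DHDr2_07_A at 3.14 in L43 and DHDr2_04_B at 3.49 in L49. The median same-chain pair stood at -2.78 in L43, -3.16 in L44 and -2.18 in L49. Same-chain pairs had fewer reads before selection than pairs of different chains, with medians of 257 against 1110 in L43, 100.5 against 248 in L44 and 13 against 18 in L49. The part of this difference in the ratios was not tested. DHDr2_13_A had the highest lowest value, with 0.98, 0.40 and 2.25.

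For each chain, in the row and in the column, the designed partner was ranked among the measured chains of the other letter. It was first in 14 of 84 cases in L43, 18 of 84 in L44 and 12 of 64 in L49, and first in all 3 sets in 4 of the 64 cases that could be followed. Those 4 were DHDr2_07_A in the row, DHDr2_07_B and DHDr2_11_B in the column, and DHDr2_01_A in the column. An ordered pair enters as 2 cases, and the row case of DHDr2_07_A and the column case of DHDr2_07_B are the same pair. For DHDr2_01_A in L49 only 6 chains were ranked, and its partner stood at -0.42, from 10 reads before and 7 after selection. The median rank was 7.5, 8.0 and 7.0, with a median of 21, 21 and 18 chains ranked. Each case has a single first chain, so over all ranked chains the share that came first is set by the number ranked.

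In 40 of the 64 cases, or 62.5%, some chain of another design was above the designed partner in every set. With a crossed partner of the other letter taken in the place of the designed one, some chain was above it in every set in 926 of 1232 cases, or 75.2%. For DHDr2_16_B in the row, DHDr2_08_A exceeded DHDr2_16_A by 10.24, 7.94 and 8.78 on the log2 scale, a mean of 8.99 ± 1.16 (SD, n = 3 sets). For DHDr2_19_B in the column, DHDr2_13_A exceeded DHDr2_19_A by 6.89 ± 3.88, and for DHDr2_13_A in the row, DHDr2_19_B exceeded DHDr2_13_B by 6.34 ± 1.06. The chain DHDr2_13_A was also above the designed partner of DHDr2_15_B in the row by 6.65 ± 2.97. In the column it was above that of DHDr2_04_B by 6.09 ± 1.38 and of DHDr2_14_B by 5.77 ± 1.89. In L43, L44 and L49, log2 ratios with DHDr2_13_A were 3.81, 2.73 and -2.13 for DHDr2_15_B, and 0.99, 3.52 and 3.38 for DHDr2_04_B. For DHDr2_14_B they were -0.50, 2.15 and 0.54. The designed partners stood at -5.68, -4.18 and -5.69 for DHDr2_15_B and -5.56, -3.66 and -1.16 for DHDr2_04_B. That of DHDr2_14_B stood at -7.37, -4.69 and -3.05. With row and column medians subtracted, which takes out the general level of each chain, the differences for DHDr2_13_A in the row, DHDr2_04_B and DHDr2_14_B were 4.04, 4.15 and 3.59, and that for DHDr2_16_B was 8.66. These 6 differences were picked for their size and carry no test, and 3 sets cannot go below an exact sign-flip p of 0.25.

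Some chains were less depleted than the typical pair over their partners, and were ordered by the mean over the 3 sets of their median minus that of the table. In the row, DHDr2_13_A was first, with medians over all partners of -1.75 in L43, -1.66 in L44 and -0.31 in L49, and DHDr2_11_A, DHDr2_09_B and DHDr2_04_B followed. In the column, DHDr2_19_B was first, with medians of -2.12, -2.09 and 0.32, and DHDr2_13_A, DHDr2_12_A and DHDr2_02_A followed. Single sets had other orders: DHDr2_13_A stood above DHDr2_19_B in the column in L44, at -1.87, and DHDr2_03_B did in L49, at 0.51. Each of these 8 medians was above that of all pairs of its table in all 3 sets. With row and column medians subtracted, 4 designed and 10 crossed pairs were past 8-fold in all sets. The subtraction raises most values, and the share of all pairs past 8-fold under it was not computed, so these counts have no background.

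A pair and its swapped form did not always go together. Where both were measured, 37 combinations of different chains were past 8-fold either way in L43, 57 in L44 and 21 in L49, and 9, 13 and 4 of them were past it both ways. The Pearson correlation between orientations was 0.373 over 817 combinations in L43, 0.447 over 854 in L44 and 0.548 over 523 in L49, and Spearman's rho was 0.248, 0.270 and 0.562. These are descriptions, since combinations share chains and libraries. The same values over all pairs of a table were not computed, so nothing here sets DHDr2 chains apart.

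Across sets, log2 ratios of DHDr2 pairs had a Pearson correlation of 0.427 between L43 and L44 over 1702 pairs, 0.318 between L43 and L49 over 1309, and 0.269 between L44 and L49 over 1327. Spearman's rho was 0.284, 0.246 and 0.205. Of the pairs past 8-fold in L43 and measured in L44, 25 were past it in both, which is 52.1% of the L43 pairs and 35.7% of the L44 pairs, and the share of all measured DHDr2 pairs past it in both was 1.47%, near the background of 1.28%. The labelled replicates L44 and L49 shared 13 pairs, 27.1% and 44.8% of each list. That is 0.980% of the DHDr2 pairs measured in both, with a background of 0.4%. Between L43 and L44 the correlation was 0.343 over 229 pairs with fewer than 100 reads in the shallower library before selection and 0.678 over 43 pairs with at least 1000.

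In edgeR's quasi-likelihood test no pair of any kind passed an adjusted p of 0.05, either over L44 and L49 (0% of 110004 pairs) or over the 3 sets with library set as a term (0% of 14669). At an unadjusted p under 0.05, edgeR had 102 of 1734 DHDr2 pairs higher after selection in the first fit, or 5.88%, against 3.48% of all pairs, and 119 of 1741 in the second, or 6.84%, against 4.01%. For designed pairs the counts were 8 and 9 of 42. In the fit over 3 sets, DHDr2_11_A with DHDr2_11_B had a log2 change of 6.93 (SE 2.92, adjusted p = 0.572) and DHDr2_16_B with DHDr2_08_A had 8.20 (SE 2.77, adjusted p = 0.572). These changes are scaled by TMM factors, which set the bulk of pairs near 0: the median of all pairs was -0.32, against -3.16 with library size alone.

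DESeq2 made calls where edgeR made none. Over the 3 sets it called 11 of 42 designed, 99 of 1663 crossed and 4 of 36 same-chain pairs higher at an adjusted p under 0.05, with 4.4% of all pairs called. With size factors over positive counts it called 11, 103 and 4, with 4.51% of all pairs. Among them were all 7 crossed pairs past 8-fold in all sets, with DESeq2 adjusted p from 1.48e-22 to 1.64e-12, and DHDr2_11_A with DHDr2_11_B, at 6.54e-13. These pairs were picked by their log2 ratios in the same libraries, so their calls are no separate support. With library size alone edgeR gave DHDr2_16_B with DHDr2_08_A an adjusted p of 0.041, and the rest of the 7 crossed pairs had 0.054 to 0.087. That fit called 4 of 1741 DHDr2 pairs higher and 956 lower, against 18 higher and 8765 lower of all 14669 pairs. Over L44 and L49, DESeq2 tested 1734 DHDr2 pairs but gave an adjusted p to 446, leaving out pairs with a low mean count. It called higher 193 of the 446, or 43.3%, with a background of 29.7%. With size factors over positive counts it called 201 of 416, or 48.3%, with a background of 34.7%. The mean includes reads after selection, so pairs high after selection pass more easily, and these are not shares of all pairs tested. At an unadjusted p under 0.05, DESeq2 with default size factors had 17.1% of the 1734 higher, against 12.3% of 110004 pairs.

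With the 295 proteins of other series, 73 of 19211 ordered pairs were past 8-fold in both L44 and L49, or 0.380%, and among DHDr2 chains 13 of 1327 were, or 0.980%, with a background of 0.4%. By series, the share was 0.416% with HT_DHD chains, 0.410% with ZCON proteins, 1 of 1125 pairs with Bcl-2 homologues and their inhibitors, and 0 of 709 with mALb proteins. Counting L43 where it held the protein, 67 pairs were past 8-fold in every set. DHDr2_13_A took part in 19 of them and DHDr2_19_B in 8.

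The pair with the highest lowest value was A_HT_DHD_25 with DHDr2_19_B, at 6.26 in L44 and 5.94 in L49. ZCON_VR_2_resurf_B with DHDr2_19_B had 5.85, 6.14 and 6.38 in L43, L44 and L49. DHDr2_13_A with ZCON_154_LL_A had 5.35, 5.06 and 7.70, and DHDr2_13_A with A_HT_DHD_49 had 5.69 in L44 and 7.71 in L49. DHDr2_06_B with B_HT_DHD_93, at 5.42 and 6.52, and DHDr2_09_B with B_HT_DHD_37, at 5.20 and 6.66, joined other chains.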

How the data were processed

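The files hold raw read counts per ordered pair of barcodes, as square matrices that the authors deposited for each library. Per the submitters' processing notes the authors used DESeq2, with its version, barcode matching and read filters not given in the sources used here. An empty cell was taken as 0 reads. An ending _swap, carried by names of other series, was removed, since all 10 names found with and without it shared a barcode.

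Log2 ratios used each library's total and came from Python 3.11.15, using pandas 2.3.3, numpy 2.4.6 and scipy 1.17.1. Counts of L44 and L49, and of L43, L44 and L49 with library set as a term, were fitted on whole tables in R 4.3.3 with edgeR 4.0.16 (limma 3.58.1), TMM factors and Benjamini-Hochberg adjustment, keeping pairs whose reads summed to 10 or more per library. SE is the absolute log2 change over the square root of the F statistic. Both fits were checked on simulated counts. The simulation gave every pair the same dispersion and lowered no pair, so it does not show how the fits perform on these counts. With 2 or 3 selections, p-values measure the spread between these library sets.

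Libraries were paired by library set per the labels. Deviations from group means correlated by 0.329 between same-numbered libraries of the pool. Replicates were separate libraries, with a chi-square per degree of freedom of 25.2 before and 226 after selection.

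Alternatives were DESeq2 1.42.0 with its default size factors, other filters, scalings, pseudocounts and thresholds, and sets or libraries left out. DESeq2 was first run with size factors over positive counts. It was changed to the default after those counts were seen, because the default is what had been specified, and both are given.

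The chains, pair lists and naming rules were chosen with earlier results of these data known. Named were designs past 8-fold in every set in an orientation, the 3 lowest designs, crossed, same-chain and other-series pairs by their lowest value over sets, chains by median, and 6 preferences by size. Of the chains so named, barcodes are shown for those of the crossed pairs and of designs 03 and 11.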

Additional observations from a re-analysis of the deposited data

Results flagged for a closer look

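In 3 same-chain pairs the subset library had the opposite sign to both pool libraries, a difference that was not tested. DHDr2_07_A had a log2 ratio of 3.14 in L43 against -3.16 in L44 and -2.70 in L49. DHDr2_03_B had -1.92 in L43 against 0.99 and 2.44, and DHDr2_04_A had 1.05 in L43 against -1.92 and -1.87.

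Pairs with fewer than 10 reads before selection in a set have no log2 ratio for that set in the counts above, although the edgeR and DESeq2 fits, which filter on total reads, include those that pass that filter. Some were high after selection. In L49 these were 17 of 434 such pairs with a log2 ratio of 3 or more, in L43 6 of 54 and in L44 0 of 14. The share among all pairs of a table with so few reads was not computed. These counts therefore have no background, and counting error is large in such pairs. DHDr2_09_B with DHDr2_12_A had 0 reads before and 103 after selection in L49, and DHDr2_08_B with DHDr2_17_A had 0 and 85. DHDr2_17_B with DHDr2_17_A, a designed pair, had 3 and 59. DHDr2_13_A with DHDr2_09_B had 4 and 89 in L43.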

How the results depend on the processing

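The read minimum, the threshold, the scaling and the choice of sets moved the counts of pairs past 8-fold in all 3 sets (1 designed, 7 crossed, 0 same-chain). With at least 50 reads before selection they were 0 designed and 0 crossed, with a designed median of -4.04, because 4 designed and 168 crossed pairs were then measured in all sets and none of the 8 pairs had 50 reads in L49. Over the remaining sets DHDr2_11_A with DHDr2_11_B had 4.54, DHDr2_16_B with DHDr2_08_A 5.11 and DHDr2_13_A with DHDr2_19_B 6.78. At a log2 ratio of at least 2 they were 3 and 12, and at 4 they were 0 and 1. With the median of all pairs subtracted they were 6 designed, 24 crossed and 1 same-chain. The median log2 ratios turned from -2.70, -2.87 and -2.39 to 0.31, 0.15 and 0.63. Both changes follow from the subtraction, which raises every value. The share of all pairs past 8-fold was not computed under this scaling or the next, so these counts have no background. With row and column medians subtracted there were 4 designed pairs, with medians of 0.10, -0.027 and 0.41. DHDr2_18_B with DHDr2_18_A then stood at 0.047. Leaving out a library set gave 1 to 5 designed pairs (5 without L49) and 7 to 20 crossed pairs (20 without L49), with designed medians from -2.61 to -1.80. The count of cases with the designed partner first in all sets went from 4 to 2 with row and column medians subtracted, and to 0 of 8 with at least 50 reads. At that minimum the correlations of L43 and of L44 with L49 were 0.208 and 0.113.

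With the replicate block, edgeR over L44 and L49 called 0 DHDr2 pairs, as without it, and the pairing changed no call. Leaving out a library gave 0 to 186 calls: 176 without the selected library of replicate 1 and 186 without that of replicate 2, where the lone selected library is assumed to vary like the others. Both fits with a lone selected library also called pairs outside the DHDr2 series, so these counts alone do not set DHDr2 pairs apart. Without the selected library of replicate 1, the median log2 change was -0.44 for DHDr2 pairs and -0.91 for all pairs. Without that of replicate 2, the medians were 0.21 and -0.14. Among pairs that received an adjusted p, DESeq2 with its default size factors called 194 DHDr2 pairs (193 higher and 1 lower). It called 201 with size factors over positive counts. The latter setting was run first but was not the one specified. Over the 3 sets DESeq2 called 116, and 120 with those size factors, and edgeR with library size alone called 960, of which 956 were lower. The call rate there follows the scaling. Leaving out a set gave 0 calls each time, and the edgeR change of DHDr2_18_B with DHDr2_18_A ran from -1.34 without L43 to 0.13 without L49. The causes of the other changes were not tested. Depth limits L49 most, where 434 of 1764 DHDr2 pairs had fewer than 10 reads before selection.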
